A study of Mus musculus with 6 samples.

Results

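The 9 genes described here encode proteins of the tight junction and of the apical polarity machinery that positions it: the claudins Cldn3, Cldn4 and Cldn7, the MARVEL-domain proteins Ocln (occludin) and Marveld2 (tricellulin), the cytoplasmic scaffolds Tjp1 (ZO-1), Tjp3 (ZO-3) and Cgn (cingulin), and the apical polarity protein Crb3. They were taken by gene symbol from the 19179 genes listed, and all 9 were found. They were chosen by function and by their RPKM in these same 6 libraries, so their differences between the groups are given as a description and no test of them is claimed. The libraries come from clones of 4T1, a mouse mammary carcinoma line of the BALB/C strain, each grown from 1 cell per well for 14 days. RNA was sequenced from 3 libraries of clones labelled breast cancer stem cell (stem-labelled) and 3 libraries of clones labelled breast cancer cell (other). Both groups share the parent line and culture, and no treatment or allele is named for either. The labels give 10 clones of each kind, collected at random, and 3 batches from independent experiments, but not what decided a clone's kind, nor how many clones went into a library.

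Tight junctions seal the space between neighbouring epithelial cells near their apical side. Claudins are four-pass membrane proteins whose strands form the seal and set which ions pass, occludin and tricellulin are strand proteins of bicellular and tricellular contacts, and ZO proteins and cingulin tie the strands to actin. CRB3 binds PALS1 and PATJ inside the cell and, with the PAR3, PAR6 and atypical protein kinase C complex, marks the apical domain. Mammary epithelium is rich in claudins 3, 4 and 7, and the claudin-low class of breast tumours is named for their scarcity.

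Levels are the authors' RPKM, reads scaled by gene length and by a library total, so genes of different length can be set side by side. Changes are log2 differences of RPKM + 1, stem-labelled minus other, ± SE, from limma fitted to every gene that reached an RPKM of 1 in 3 or more libraries, which kept 10097 genes. A gene was called changed at a Benjamini-Hochberg adjusted p under 0.05. The p-values measure the spread between these libraries, and with 3 against 3 an exact permutation test of a single gene cannot go below p = 0.1. In bulk RNA, fewer cells of a type and less RNA per cell cannot be told apart.

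Each stem-labelled library held 21196572 to 22838870 reads in genes, and each other library 15357608 to 16830762. These were 0.658 to 0.757 and 1.23 to 1.53 times the library totals implied by the RPKM, so the scale between the groups rests on totals that do not match the reads. Rescaling to the reads in genes moved the median change of all tested genes to 0.86, against 0.11 as deposited. Changes also ran with gene length: the median change was -1.17 in the shortest of 10 length classes and 0.71 in the longest. A correction for length and GC content was therefore run, and the median change after it was 0.07. Of the epithelial keratins, Krt8 was at 482 to 767 RPKM in stem-labelled libraries and 849 to 1505 RPKM in other libraries, as in a line of epithelial origin. Leukocyte, endothelial and fibroblast markers that define those cells (Ptprc, Csf1r, Itgam, Pecam1, Kdr, Tek, Dcn, Col1a1 and Col1a2) were at or under 0.0854 RPKM in every library, and the macrophage-associated Cd68, at 12.2 to 39.9 RPKM in stem-labelled libraries and 6.08 to 29.3 RPKM in other libraries, was not called as deposited but was called higher after the correction (1.59). Pdgfra, a mesenchymal receptor, was called higher in stem-labelled clones as deposited (1.10 ± 0.23) and was not called after the correction (0.15). How far the length trend or the library totals enter the change of a single gene was not tested.

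Cldn4 had the widest difference among the 8 tested members, as deposited and after the length and GC correction. Cldn4 was at 4.41, 11.5 and 7.25 RPKM in stem-labelled replicates 1 to 3, against 245, 125 and 153 RPKM in other replicates 1 to 3. Each stem-labelled library lay far below every other library, and the groups did not overlap. Its mean was 7.72 ± 3.56 RPKM in stem-labelled clones and 175 ± 62.7 RPKM in other clones (SD, n = 3 each), which is 22.6-fold higher in the other clones. The log2 change of -4.36 ± 0.35 was the 23rd lowest of the 10097 genes tested. It remained at -3.46 after the correction for length and GC content, and relative to the median of all genes it was -4.47 as deposited, -3.53 corrected and -4.33 rescaled.

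Cldn3, which with claudin-4 is a receptor for Clostridium perfringens enterotoxin, was also lower in every stem-labelled library. It stood at 17.3, 24.5 and 6.98 RPKM in stem-labelled replicates 1 to 3, against 84.7, 51.1 and 82.4 RPKM in other replicates 1 to 3. The third stem-labelled library was the lowest of all, and the groups did not overlap. The means were 16.3 ± 8.78 RPKM in stem-labelled clones and 72.7 ± 18.8 RPKM in other clones (SD, n = 3 each), with a log2 change of -2.21 ± 0.41. Cldn3 is short, at 1259 bases, and of the genes in its length class 48.5% were called lower, with a median change of -0.73. Its change was -0.67 after the correction and was then not past the threshold.

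Cldn3 and Cldn4 lie on chromosome 5 as single-exon genes, Cldn3 at chr5:134986214-134987472 on the plus strand and Cldn4 at chr5:134945119-134946934 on the minus strand (GRCm38), with 39280 bases between them. Their balance differed between the groups. The ratio of Cldn4 to Cldn3 RPKM was 0.255, 0.470 and 1.04 in stem-labelled replicates 1 to 3, against 2.89, 2.45 and 1.86 in other replicates 1 to 3. Cldn3 was thus the more abundant claudin in stem-labelled replicates 1 and 2 and level with Cldn4 in replicate 3, while Cldn4 led in every library of the other clones. A library's total cancels in a ratio of 2 of its genes, so this difference does not rest on the totals, but a trend with length could still move it.

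Cldn7 behaved unlike the other claudins within the other clones. It was at 0.018, 0.102 and 0.175 RPKM in stem-labelled replicates 1 to 3 (1, 6 and 11 reads), against 0.560, 0.536 and 29.0 RPKM in other replicates 1 to 3 (13, 13 and 569 reads). The groups did not overlap, but a single library, replicate 3 of the other clones, was 51.8-fold above the next. The mean of the other clones was 102-fold that of the stem-labelled clones with this library and 5.58-fold without it. Cldn7 was under the filter on low values and was not tested. Fitted without the filter its log2 change was -1.92 ± 1.16.

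**Figure D1:**
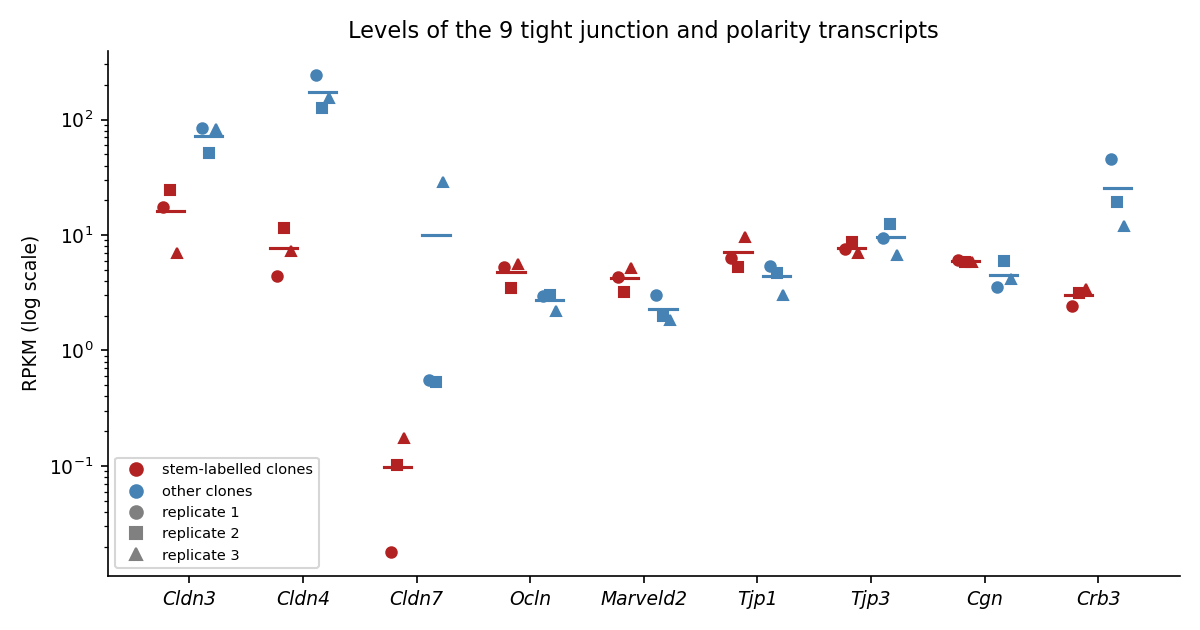
RPKM of the 9 genes (log axis) in the 3 stem-labelled libraries (left of each pair) and the 3 other libraries (right), with 1 point per library shaped by replicate and a bar at the group mean. Cldn3, Cldn4, Cldn7 and Crb3 are lower in every stem-labelled library, Ocln and Marveld2 are higher in every one, and a single other library carries 29.0 RPKM of Cldn7.

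Replicate 3 of the other clones was examined further, after its Cldn7 value had been seen. It held 10 genes of at least 5 RPKM that were at least 10-fold above each of the remaining 5 libraries, 5 of them with at least 10 reads. Besides Cldn7 those were Ap1m2, Lce1g, Prl3d2 and Capsl. Ap1m2 encodes the epithelial mu subunit of the AP-1 sorting adaptor and was at 6.34 RPKM there, against 0.531 RPKM in the next library. The same count of genes was 5 in replicate 1 and 0 in replicate 2 of the other clones, and 0, 1 and 0 in stem-labelled replicates 1 to 3.

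The nearest genes to Cldn7, which lies at chr11:69964779-69967885, showed no such step. Elp5, 337 bases away, was at 31.1, 28.8 and 20.6 RPKM in stem-labelled replicates 1 to 3, against 53.5, 70.8 and 63.2 RPKM in other replicates 1 to 3. Ctdnep1, the next nearest, was at 36.9, 37.5 and 28.6 RPKM in stem-labelled replicates 1 to 3, against 44.5, 66.5 and 55.6 RPKM in other replicates 1 to 3. In neither did the third library of the other clones stand apart. Farther off, Asgr1, 86200 bases away, did have its highest value there, with 0.309, 2.55 and 0.508 RPKM in stem-labelled replicates 1 to 3, against 0.633, 1.21 and 6.68 RPKM in other replicates 1 to 3.

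Epcam, a binding partner of claudin-7, did not share its pattern either. This adhesion protein, which holds claudin-7 in the membrane and protects it from breakdown, was at 50.2, 55.5 and 59.8 RPKM in stem-labelled replicates 1 to 3, against 58.5, 53.5 and 56.5 RPKM in other replicates 1 to 3. The groups overlapped, and Epcam was not called changed (-0.03 ± 0.21, limma adjusted p = 0.917), although it was called higher after rescaling (0.90). Of the 5 genes in the list of Epcam, the membrane protease matriptase and related genes, 1 was called higher in stem-labelled clones and 4 were not called. Of all tested genes 29.9% were called higher and 25.4% lower. The gene called higher was the inhibitor Spint1 (0.68 ± 0.26, limma adjusted p = 0.0465). After the length and GC correction Spint1 was called higher (1.10), and Spint2 (-1.09) and St14 (-0.63) were called lower. The shares of all genes were then 25.9% and 22.0%. After rescaling 3 of the 5 were called higher and 0 lower, beside 58.7% and 12.3% of all genes.

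**Figure D2:**
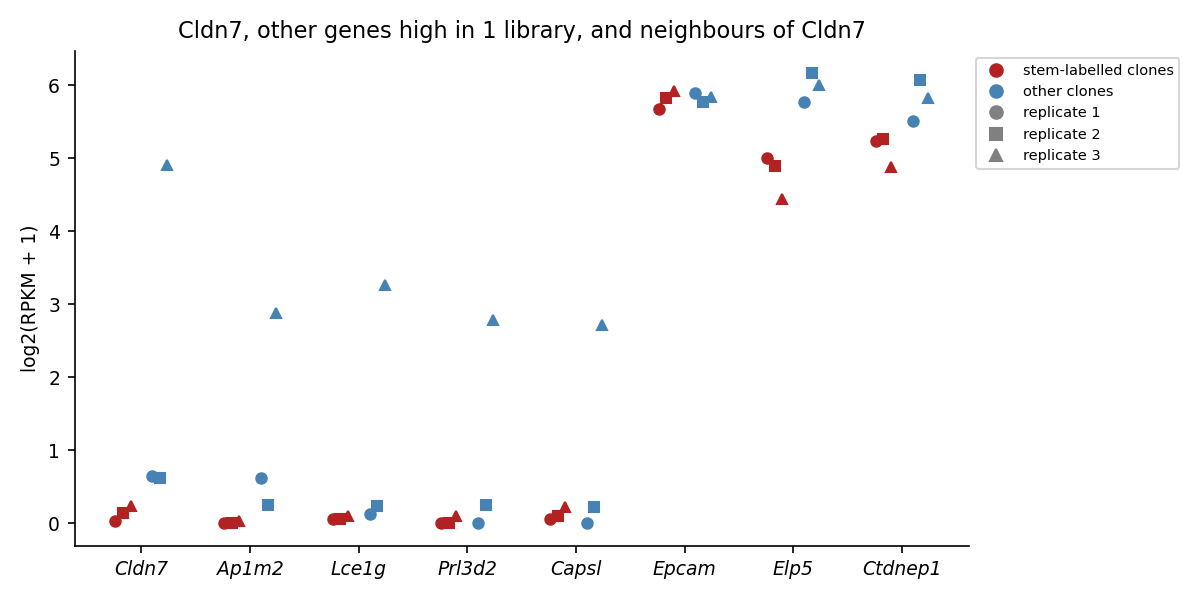
log2(RPKM + 1) of Cldn7, of 4 genes with their highest value in the same library, and of Epcam, Elp5 and Ctdnep1, with stem-labelled libraries left and other libraries right of each gene's centre and 1 point per library. Replicate 3 of the other clones (triangle) is the highest library for the first 5 genes and lies among the others for Epcam, Elp5 and Ctdnep1.

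Crb3, at chr17:57059105-57065918 on the plus strand, followed the claudins. It was at 2.45, 3.14 and 3.44 RPKM in stem-labelled replicates 1 to 3, against 45.9, 19.4 and 11.9 RPKM in other replicates 1 to 3. The stem-labelled libraries lay close together and below all of the other libraries, which themselves differed by 3.87-fold. The means were 3.01 ± 0.507 RPKM in stem-labelled clones and 25.7 ± 17.9 RPKM in other clones (SD, n = 3 each), 8.55-fold higher in the other clones. The log2 change was -2.53 ± 0.40, and -1.39 after the correction for length and GC content.

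The promoter sequences of the 4 genes that were lower in every stem-labelled library are shown because SNAI, ZEB and TWIST factors, repressors of epithelial junction genes, bind E-boxes such as CAGGTG. Each sequence is the stretch of 250 bases before a RefSeq transcript start (GRCm38.p6), 5′ to 3′ on the gene's strand, with matches to CAGGTG on either strand (CACCTG when reversed) in capitals. The windows are chr5:134985964-134986213 (plus) for Cldn3, chr5:134946935-134947184 (minus) for Cldn4, chr11:69965171-69965420 (plus) for the second start of Cldn7 and chr17:57061951-57062200 (plus) for the first start of Crb3.
Cldn3: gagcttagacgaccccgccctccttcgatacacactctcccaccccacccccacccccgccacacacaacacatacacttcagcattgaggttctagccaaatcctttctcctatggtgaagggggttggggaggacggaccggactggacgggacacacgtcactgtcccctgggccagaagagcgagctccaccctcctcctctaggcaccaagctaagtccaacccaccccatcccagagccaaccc
Cldn4: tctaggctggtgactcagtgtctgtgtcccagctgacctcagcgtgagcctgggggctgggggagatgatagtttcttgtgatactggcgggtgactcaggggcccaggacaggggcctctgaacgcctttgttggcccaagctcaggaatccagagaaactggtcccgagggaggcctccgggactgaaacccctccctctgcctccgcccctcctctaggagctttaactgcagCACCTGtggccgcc
Cldn7: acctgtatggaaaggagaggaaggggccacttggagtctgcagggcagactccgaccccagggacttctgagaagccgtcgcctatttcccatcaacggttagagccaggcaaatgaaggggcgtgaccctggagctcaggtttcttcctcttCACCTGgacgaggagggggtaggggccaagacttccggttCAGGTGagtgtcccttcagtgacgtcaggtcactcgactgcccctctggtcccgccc
Crb3: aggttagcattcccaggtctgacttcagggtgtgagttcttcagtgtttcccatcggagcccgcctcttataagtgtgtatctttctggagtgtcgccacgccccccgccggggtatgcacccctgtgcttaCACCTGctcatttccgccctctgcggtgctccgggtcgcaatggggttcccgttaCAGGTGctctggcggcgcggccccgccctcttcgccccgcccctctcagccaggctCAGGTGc

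Crb3 had 3 matches, Cldn7 had 2 at this start and 0 at its other start, Cldn4 had 1 match, 14 bases before its start, and Cldn3 had 0. Over all 9 genes, 7 of 14 windows in 5 genes held the motif, including windows of Ocln and Tjp3, which were not called lower in stem-labelled clones. The 2 windows of Crb3 overlap and hold the same 3 matches, and each is counted among the 7. Of 32851 RefSeq promoter windows of the same length 17.2% held the motif. A match is a description of the letters, not of binding.

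The strand proteins other than claudins went the opposite way by small amounts. Ocln was at 5.24, 3.50 and 5.63 RPKM in stem-labelled replicates 1 to 3, against 2.96, 3.01 and 2.21 RPKM in other replicates 1 to 3. Marveld2 was at 4.29, 3.23 and 5.15 RPKM in stem-labelled replicates 1 to 3, against 3.00, 1.97 and 1.85 RPKM in other replicates 1 to 3. For both, the groups did not overlap, though the lowest stem-labelled library and the highest other library came close together. Ocln averaged 4.79 ± 1.14 RPKM in stem-labelled clones and 2.73 ± 0.447 RPKM in other clones (SD, n = 3 each), a log2 change of 0.62 ± 0.22 and 0.69 after correction. Marveld2 averaged 4.22 ± 0.965 RPKM in stem-labelled clones and 2.27 ± 0.633 RPKM in other clones (SD, n = 3 each), a log2 change of 0.67 ± 0.22 and 0.29 after correction. Ocln kept its call after the correction and Marveld2 did not. Relative to the median of all genes, Ocln was at 0.51 as deposited, 0.62 corrected and 0.49 rescaled. Marveld2 was at 0.56 as deposited, 0.23 corrected and 0.51 rescaled. Leaving out 1 library at a time, each of these 2 genes passed the threshold in 2 of 6 fits, with log2 changes of 0.51 to 0.80 for Ocln and 0.55 to 0.83 for Marveld2.

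Ocln and Marveld2 are 43239 bases apart on chromosome 13, at chr13:100496507-100552718 and chr13:100595957-100616971, both on the minus strand. Their ratio differed less than the claudin ratios, at 1.22, 1.08 and 1.09 in stem-labelled replicates 1 to 3, against 0.986, 1.52 and 1.20 in other replicates 1 to 3. Of the 4 tested genes within 100 kb of either, 0 were called higher, 1 was called lower (Ak6, -0.82 ± 0.28, limma adjusted p = 0.0335) and 3 were not called. Of all tested genes 29.9% were called higher and 25.4% lower. After the length and GC correction Rad17, 193 bases from Marveld2, was called higher (1.14). Ak6 (-0.89) and Cdk7 (-0.57) were then called lower and Gtf2h2 was not called, beside 25.9% higher and 22.0% lower of all genes.

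The 3 scaffolds had the smallest changes of the 8 tested members as deposited. They lie at chr7:65296165-65527781 (Tjp1), chr10:81273207-81291267 (Tjp3) and chr3:94760069-94786492 (Cgn), all on the minus strand. Tjp1, the first identified ZO protein and a partner of claudins and occludin, was at 6.35, 5.27 and 9.63 RPKM in stem-labelled replicates 1 to 3, against 5.44, 4.67 and 3.03 RPKM in other replicates 1 to 3. Tjp3 was at 7.55, 8.76 and 6.97 RPKM in stem-labelled replicates 1 to 3, against 9.46, 12.5 and 6.73 RPKM in other replicates 1 to 3. Cgn, which links the ZO proteins to actomyosin and binds the RhoA activator GEF-H1, was at 6.06, 5.85 and 5.82 RPKM in stem-labelled replicates 1 to 3, against 3.51, 5.93 and 4.17 RPKM in other replicates 1 to 3. The groups overlapped for all 3. Their log2 changes were 0.58 ± 0.26 for Tjp1, -0.24 ± 0.24 for Tjp3 and 0.34 ± 0.21 for Cgn, and none passed the threshold as deposited. The signs turned with the correction, to -0.21 for Tjp1, 0.39 for Tjp3 and -0.06 for Cgn, so no direction is given for them. Cgn shares 20.1% of its 50-base stretches with the pseudogene BC021767, and the counting could have split reads between the 2.

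Among the 8 members tested, 2 were called higher in stem-labelled clones (Ocln and Marveld2) and 3 were called lower (Cldn3, Cldn4 and Crb3), beside 29.9% and 25.4% of all tested genes. After the length and GC correction 1 member was called higher (Ocln) and 2 were called lower (Cldn4 and Crb3), beside 25.9% and 22.0% of all genes. After rescaling to reads in genes 4 were called higher and 3 lower, beside 58.7% and 12.3%. The groups did not overlap for 2 tested members higher in stem-labelled clones and 3 lower, beside 35.7% and 27.8% of all tested genes. These counts follow from how the genes were chosen and are read no further.

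**Figure D3:**
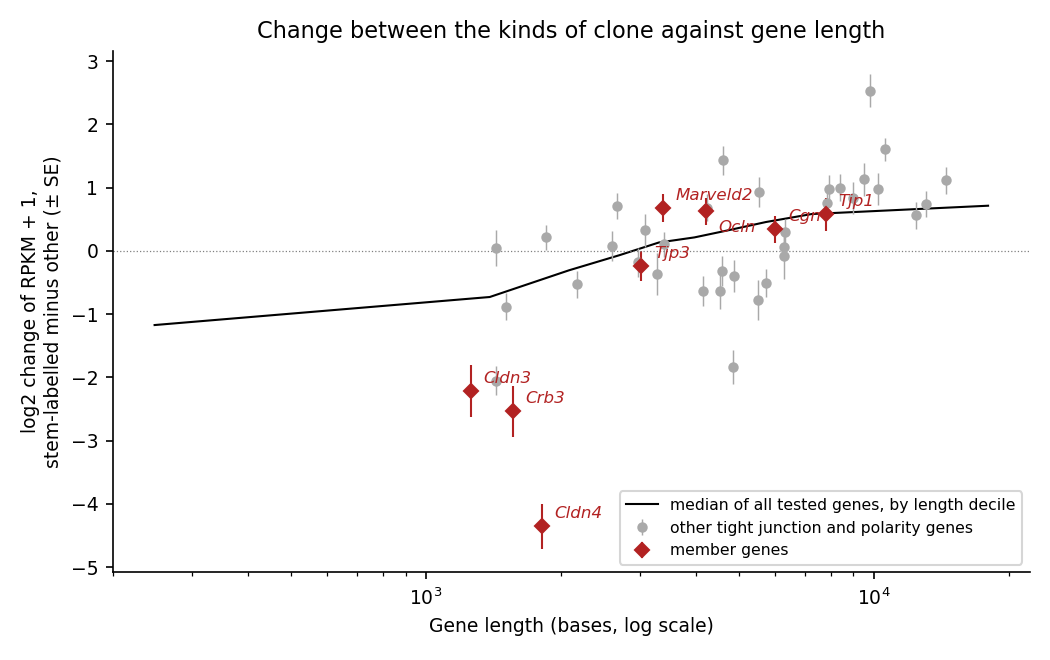
log2 change of RPKM + 1 (stem-labelled minus other, ± SE) against gene length in bases (log axis) for the 8 tested members (diamonds) and 35 other tight junction and polarity genes (circles), with the median change of all tested genes in each of 10 length classes as a line. Cldn4 lies furthest below the line, Cldn3 and Crb3 lie below it, and Tjp1 and Cgn lie on it.

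Put together, the make-up of the summed level differed between the kinds of clone. The 9 genes summed to 53.7, 65.8 and 51.0 RPKM in stem-labelled replicates 1 to 3, against 401, 224 and 295 RPKM in other replicates 1 to 3. Claudins made up 40.5, 54.8 and 28.2% of that sum in stem-labelled replicates 1 to 3, against 82.5, 78.8 and 89.9% in other replicates 1 to 3. Without the claudins the sums were 31.9, 29.8 and 36.6 RPKM in stem-labelled replicates 1 to 3, against 70.3, 47.5 and 29.9 RPKM in other replicates 1 to 3. The groups overlapped once the claudins were taken out, and in each library of the other clones Crb3 was the largest part of what remained.

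Set against the scaffold Tjp1, Cldn4 also differed without overlap. The ratio of Cldn4 to Tjp1 RPKM was 0.694, 2.18 and 0.753 in stem-labelled replicates 1 to 3, against 45.1, 26.8 and 50.7 in other replicates 1 to 3. In stem-labelled clones the order of mean levels was Cldn3, Tjp3, Cldn4, Tjp1, Cgn, Ocln, Marveld2, Crb3 and Cldn7, and the ranges of neighbours in that order overlapped except between Cgn and Ocln and between Crb3 and Cldn7. In other clones the order was Cldn4, Cldn3, Crb3, Cldn7, Tjp3, Cgn, Tjp1, Ocln and Marveld2, and the ranges were apart between Cldn4 and Cldn3, Cldn3 and Crb3, Tjp3 and Cgn, and Tjp1 and Ocln. The place of Cldn7 there rests on replicate 3, without which its mean of 0.548 RPKM was the lowest of the 9 genes. Crb3 held the second lowest place in stem-labelled clones and the third highest in the other clones.

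**Figure D4:**
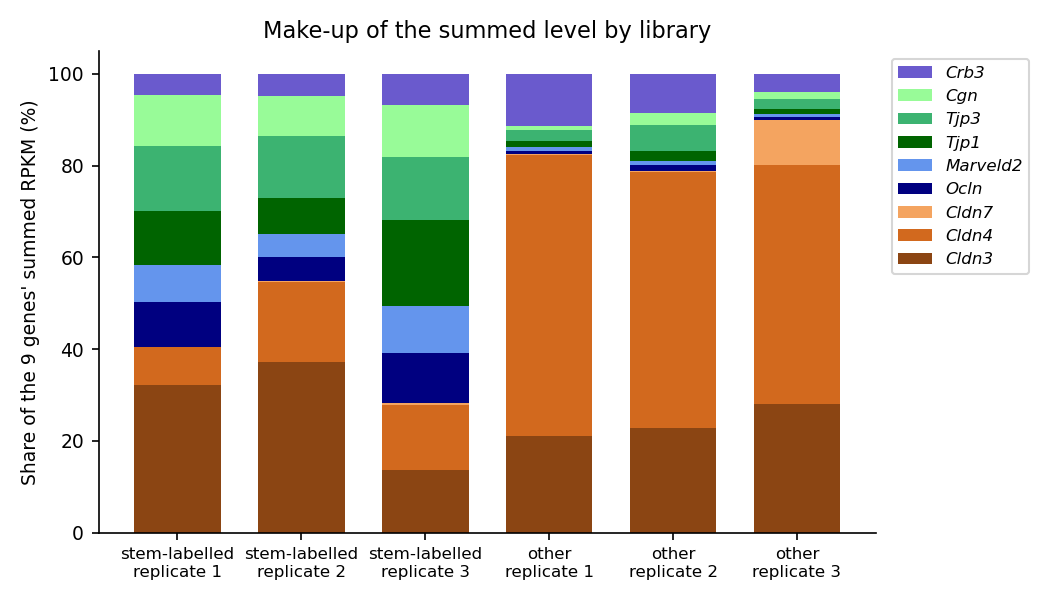
Share of each gene in the summed RPKM of the 9 genes (%), 1 bar per library, with the 3 stem-labelled libraries left and the 3 other libraries right. Claudins (brown and orange) make up 28.2 to 54.8% in stem-labelled libraries and 78.8 to 89.9% in other libraries.

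The genes around Cldn3 and Cldn4 were examined for like changes. Within 100 kb of either lie 8 other protein-coding genes, of which 6 were tested, and 5 were called lower and 1 higher in stem-labelled clones, beside 25.4% lower and 29.9% higher of all tested genes. Abhd11, a mitochondrial hydrolase, was at 7.31, 5.60 and 4.33 RPKM in stem-labelled replicates 1 to 3, against 20.8, 23.5 and 16.7 RPKM in other replicates 1 to 3 (-1.67 ± 0.23, limma adjusted p = 0.000444). The others called lower were Vps37d (-1.79), Stx1a (-0.98), Bud23 (-0.91) and Dnajc30 (-0.51). Mettl27, 2482 bases from Cldn4, was called higher, with 3.73, 2.63 and 2.39 RPKM in stem-labelled replicates 1 to 3, against 1.38, 1.61 and 0.564 RPKM in other replicates 1 to 3 (0.86 ± 0.24, limma adjusted p = 0.0135). The gene nearest to Cldn4 thus moved the opposite way. After the length and GC correction Abhd11 and Bud23 were still called lower, and Stx1a, Vps37d, Dnajc30 and Mettl27 were not called.

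Genes outside the 9 were read from lists of tight junction and polarity genes. Of 66 such genes 51 were in the files and 35 were tested. Of these 15 were called higher, 4 lower and 16 not called, beside 29.9% higher and 25.4% lower of all tested genes. The median change was 0.21 against 0.11 for all genes. With the length and GC correction 9 were called higher, 2 lower and 24 not called, beside 25.9% and 22.0% of all genes. The median change was then 0.07 for the list and 0.07 for all genes. With rescaling 24 were called higher, 2 lower and 9 not called, beside 58.7% and 12.3% of all genes. The listed genes are long, with a median of 4862 bases among those tested.

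The other claudins were scarce. Of 21 listed, 10 were in the files and 4 were tested. Cldn12, an unusual claudin without the usual scaffold-binding tail, was called higher, with 5.61 ± 1.34 RPKM in stem-labelled clones and 3.09 ± 0.439 RPKM in other clones (SD, n = 3 each; 0.68 ± 0.21, limma adjusted p = 0.0228). Cldn6, a claudin of embryonic epithelia, was called lower, with 0.929 ± 0.238 RPKM in stem-labelled clones and 2.58 ± 0.735 RPKM in other clones (SD, n = 3 each; -0.88 ± 0.21, limma adjusted p = 0.00584). Neither kept its call after the length and GC correction (0.45 for Cldn12 and -0.12 for Cldn6), and Cldn6 was also not called after rescaling (-0.32). Cldn9 and Cldn23 were not called as deposited (0.05 and 0.21) but were called higher after the correction (1.15 and 0.82). Thus 2 of the 4 were then called higher and 0 lower, beside 25.9% and 22.0% of all genes. After rescaling 3 were called higher (Cldn9, Cldn12 and Cldn23) and 0 lower, beside 58.7% and 12.3%. Among 4 tested membrane proteins of other families, F11r (JAM-A), an immunoglobulin-type adhesion protein that recruits PAR3, was called higher, with 36.5 ± 4.39 RPKM in stem-labelled clones and 21.9 ± 1.93 RPKM in other clones (SD, n = 3 each; 0.71 ± 0.21, limma adjusted p = 0.016), also after the correction (0.53), and 3 were not called.

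Of 12 tested scaffold and plaque genes outside the members, 8 were called higher, 1 lower and 3 not called. Of all tested genes 29.9% were called higher and 25.4% lower. The list had a median change of 0.87 and a median length of 8120 bases. In the length class of that median 51.4% of genes were called higher and 8.71% lower, with a median change of 0.58. After the correction 5 of the list were called higher, 0 lower and 7 not called, beside 25.9% and 22.0% of all genes. Amotl1, an angiomotin of junctions that binds the Hippo effector YAP, had the largest change of this list. It was at 30.1 ± 7.61 RPKM in stem-labelled clones and 4.36 ± 1.20 RPKM in other clones (SD, n = 3 each; 2.54 ± 0.25, limma adjusted p = 0.000132). Magi1, a multi-PDZ scaffold, was at 5.56 ± 0.770 RPKM in stem-labelled clones and 1.15 ± 0.176 RPKM in other clones (SD, n = 3 each; 1.61 ± 0.19, limma adjusted p = 0.000208). Both kept their calls after the correction, at 1.56 for Amotl1 and 0.58 for Magi1. Arhgef2, which encodes the GEF-H1 that cingulin binds, was also called higher (1.13 ± 0.26, limma adjusted p = 0.00523), but not after the correction (0.37). The gene called lower was Micall2 (-0.63 ± 0.24, limma adjusted p = 0.0475), which acts in the return of occludin to the surface, and it was not called after the correction (-0.33) or after rescaling (0.28).

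Of 15 tested polarity genes other than Crb3, 5 were called higher, 2 lower and 8 not called, beside 29.9% higher and 25.4% lower of all tested genes. After the correction 1 was called higher, 2 lower and 12 not called, beside 25.9% higher and 22.0% lower of all genes. After rescaling 9 were called higher, 2 lower and 4 not called, beside 58.7% and 12.3% of all genes. The 2 called lower had the widest changes as deposited. Pard6a, which encodes PAR6 alpha, was at 5.87, 6.62 and 5.69 RPKM in stem-labelled replicates 1 to 3, against 34.3, 30.3 and 21.6 RPKM in other replicates 1 to 3 (-2.05 ± 0.22, limma adjusted p = 0.000164). Llgl2, a basolateral Lgl protein that opposes the atypical kinase, was at 12.4, 8.55 and 7.28 RPKM in stem-labelled replicates 1 to 3, against 48.1, 29.0 and 31.5 RPKM in other replicates 1 to 3 (-1.83 ± 0.27, limma adjusted p = 0.000545). Both kept their calls after the correction, at -0.86 and -1.54. Of the partners of PAR6, Pard3 (1.12 ± 0.22, limma adjusted p = 0.00208) and the atypical kinase Prkci (0.94 ± 0.24, limma adjusted p = 0.00809) were called higher as deposited and not after the correction (0.13 and 0.52), and Prkcz and Cdc42 were not called in either. Mark2, a kinase of the lateral domain, was called higher (0.98 ± 0.21, limma adjusted p = 0.00397), also after the correction (0.77). Of the direct partners of Crb3, Patj (listed as Inadl) was called higher (0.74 ± 0.21, limma adjusted p = 0.0129) but stood at -0.34 and was not called after the correction, and Pals1 (listed as Mpp5) had -0.78 ± 0.31 and was not called.

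**Figure D5:**
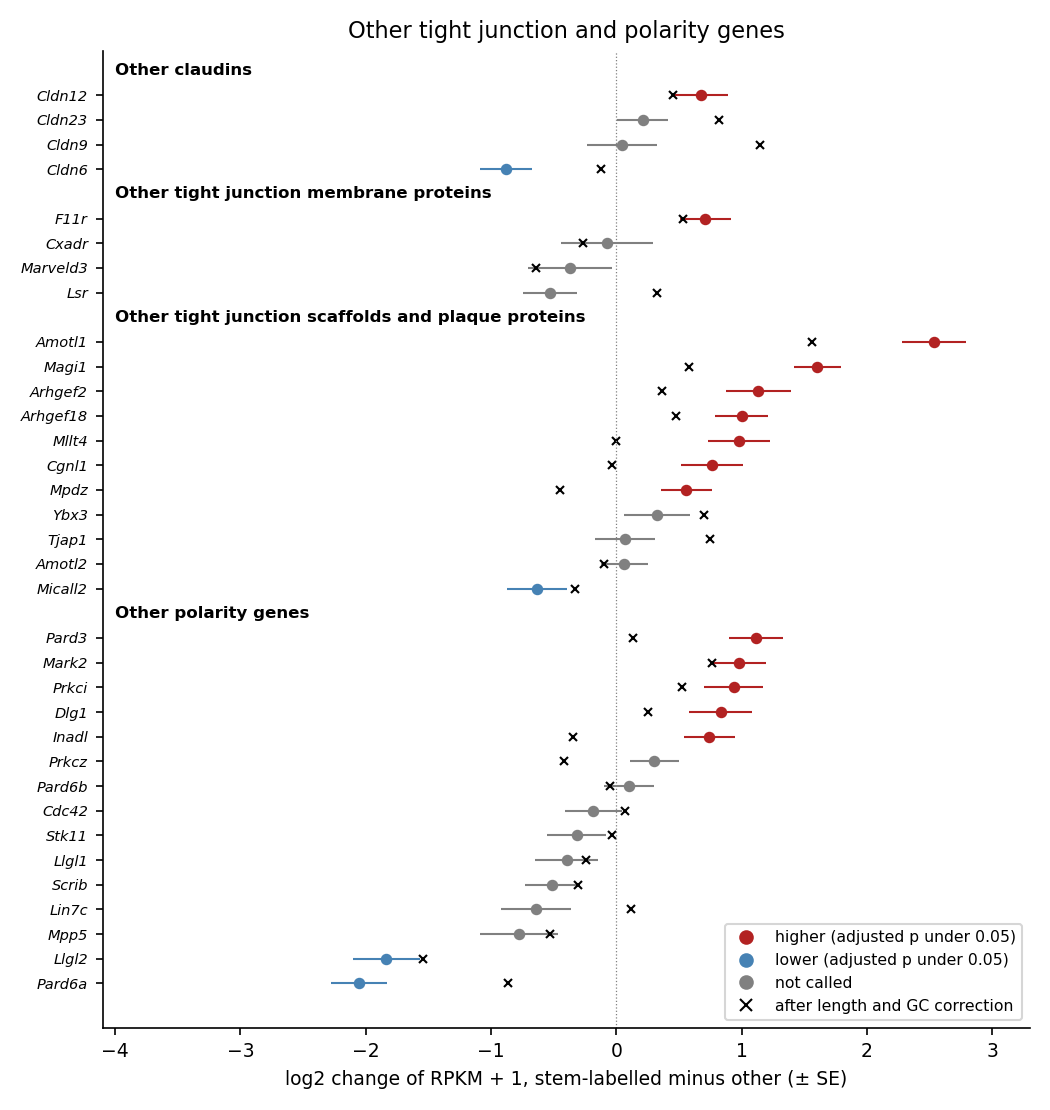
log2 change of RPKM + 1 (stem-labelled minus other, ± SE) of tested tight junction and polarity genes outside the members, by list, coloured by call, with crosses for the value after the length and GC correction. In the scaffold list Amotl1 and Magi1 lie furthest to the right, and in the polarity list Pard6a and Llgl2 lie furthest to the left.

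Transcription factors known to act on junction genes were read in the same way. Of 14 in the files 8 were tested, and 4 were called higher, 1 lower and 3 not called, beside 29.9% higher and 25.4% lower of all tested genes. Klf5, a factor of epithelial progenitors, was at 40.3 ± 5.89 RPKM in stem-labelled clones and 11.9 ± 2.38 RPKM in other clones (SD, n = 3 each; 1.68 ± 0.23, limma adjusted p = 0.000393). Twist1, a repressor of Cdh1 that binds E-boxes, was at 39.9 ± 4.79 RPKM in stem-labelled clones and 12.8 ± 1.16 RPKM in other clones (SD, n = 3 each; 1.57 ± 0.20, limma adjusted p = 0.000328). Grhl2, a grainyhead factor that activates Cldn4 in mouse epithelia, was at 3.69 ± 0.931 RPKM in stem-labelled clones and 1.40 ± 0.308 RPKM in other clones (SD, n = 3 each; 0.96 ± 0.21, limma adjusted p = 0.0045), but was not called after the correction (0.24). Klf4 was called higher (1.02 ± 0.27, limma adjusted p = 0.011) and Elf3, an epithelial ETS factor, was called lower (-1.06 ± 0.20, limma adjusted p = 0.00183). After the correction Klf5 (2.05), Twist1 (2.79), Klf4 (1.06) and Elf3 (-0.43) kept their calls, and after rescaling Elf3 was not called (-0.20). Snai1 was at 10.6, 16.7 and 9.66 RPKM in stem-labelled replicates 1 to 3, against 16.1, 18.5 and 25.9 RPKM in other replicates 1 to 3, and was not called. Zeb1 was at or under 0.0184 RPKM in every library. Zeb2 was at 0.350 to 0.677 RPKM in stem-labelled libraries and 0.169 to 0.282 RPKM in other libraries. Both were under the filter on low values and were not tested.

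Epithelial markers moved in both directions. Cdh1 (E-cadherin), the adherens junction cadherin, was called higher, with 68.9 ± 9.0 RPKM in stem-labelled clones and 16.0 ± 1.98 RPKM in other clones (SD, n = 3 each; 2.04 ± 0.22, limma adjusted p = 0.000149), also after the correction (1.45). Among the luminal keratins Krt7, Krt18 and Krt19 were called lower and Krt8 was not called, and the basal keratins Krt14 and Krt17 were called lower. After the correction Krt18 (-0.70) and Krt17 (-1.15) were not called. Summed over the 6 luminal markers the level was 928 to 1432 RPKM in stem-labelled libraries and 2052 to 3705 RPKM in other libraries. Most of that sum was Krt8 and Krt18, with means of 648 and 420 RPKM in stem-labelled clones. Their means were 1220 and 1480 RPKM in other clones, and neither was called after the correction. The sum therefore says little on the other luminal markers. The part of such shifts between epithelial markers in the claudin levels was not tested.

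Profiles most like those of 3 members were found by the smallest root-mean-square difference of log2(RPKM + 1), each gene centred on its mean over the 6 libraries. For Cldn4 they were Rgs16 (0.39), Scand1 (0.41) and Abhd17a (0.45). Crb3 was nearest to Mmp10 (0.20), Chac1 (0.20) and Snai3 (0.20), which share its order within the other clones. Tjp1 was nearest to Stil (0.046), Sin3a (0.074) and Clasp2 (0.079).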

How the data were processed

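Messenger RNA was sequenced in 6 libraries of 4T1 clones, grouped by the tissue label. The authors deposited 1 table of RPKM per library, with gene identifiers, coordinates and lengths. The submitters' processing notes name Bowtie2 2.0.6, TopHat2 2.0.9 and mm9 without a role; the counting program and strand are not given in the sources used here. File coordinates matched GRCm38: 99.6% of identifiers were in GENCODE M21 and 80.6% had its start and end, so GRCm38 is used. Exons of Cldn3, Tjp3 and Crb3 overlap a gene on the other strand by 40, 40 and 14 bases.

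RPKM times length gave whole multiples of a step in every library (100% within 0.01), which returned read counts; counting whole reads limits precision at low levels, where 1 read per kilobase is 0.0311 to 0.0993 RPKM. Depth per library was 15357608 to 22838870 reads in genes.

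limma 3.58.1 in R 4.3.3 was fitted with a variance trend to log2(RPKM + 1), two-sided, over 10097 genes (9082 removed). The added 1 understates changes of low genes. The correction regressed each library's deviations on natural splines (5 degrees of freedom) of log2 length and GC content. The limma test, without the correction, was checked on simulated data. Settings varied were replicate block, left-out libraries, scaling, filter, pseudocount, variance model, correction and limma-voom on recovered reads.

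The members and lists were chosen with earlier results of these data known. Named beside the members were, per list, up to 4 called genes with the largest change and some that were not called, partners or regulators of members, coding neighbours within 100 kb, and the 3 most alike profiles of 3 members. The genes high in 1 library, the neighbours of Cldn7, and also Zeb1 and Zeb2 were chosen after their values were seen. Some genes named by this rule are not reported here. Promoters are from RefSeq (GRCm38.p6).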

Additional observations from a re-analysis of the deposited data

How the results depend on the processing

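Cldn4, Cldn3 and Crb3 were called lower with each library left out in turn, with log2 changes of -4.66 to -4.05 for Cldn4, -2.57 to -1.74 for Cldn3 and -2.96 to -2.02 for Crb3. Ocln and Marveld2, the 2 members called higher, fell under a required mean RPKM of 5 and were not tested there. The count of 0 members called higher with that filter therefore says nothing on these 2 genes. With limma-voom on recovered reads or with no filter both were tested and 0 members were called higher, beside 25.8% and 16.0% of all genes. The count was 1 with the length and GC correction, beside 25.9% of all genes. It was 4 with rescaling to summed reads or upper-quartile scaling, beside 58.7% and 38.6% of all genes. With a library left out it was 0 to 2, beside 25.1 to 30.0% of all genes. Over all genes, 1405 of the 5951 tested with the mean RPKM filter were called higher. That is 23.6%, against 29.9% of the 10097 genes tested as deposited. With rescaling 5926 of 10097 were called higher and 1245 lower. Of the other junction genes, 7 were called higher with the mean RPKM filter, which left fewer of them tested, beside the 23.6% of all genes. With the correction 9 of 35 were called higher and with rescaling 24 of 35, beside 25.9% and 58.7% of all genes. With the correction or rescaling 2 were called lower, beside 22.0% and 12.3% of all genes. With limma-voom 8 were called lower, beside 28.4% of all genes.

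The sign turned with the length and GC correction, with or without the block, for Tjp1 (-0.21), Tjp3 (0.39), Cgn (-0.056), Inadl (-0.34), Epcam (0.21), Snai1 (0.57) and Dnajc30 (0.17). It turned with rescaling for Tjp3 (0.60), Micall2 (0.28), Epcam (0.90), Snai1 (0.20) and Dnajc30 (0.16), and with upper-quartile scaling for Epcam (0.23). With a library left out, Epcam ranged from -0.087 to 0.037. The causes were not tested.

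Same-numbered libraries did not deviate together (correlations -0.12, 0.03 and -0.08), and the labels do not say that a number marks a batch, so the numbers were not taken to pair the libraries; a shared batch was not tested further. With the replicate block 2735 genes were called higher and 2477 lower, with 1 member higher (Marveld2). Ocln had adjusted p = 0.0626 in limma with the block. With the block and the correction together 1 member (Ocln, not Marveld2) and 6 other junction genes were called higher, beside 23.1% of all genes. The alternative without replicate 3 of the other clones for the Cldn7 level (5.58-fold) was chosen after seeing the data. Levels under about 1 RPKM rest on few reads, and genes that stayed under 1 RPKM in 4 or more libraries were not tested.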
